A study of Zea mays with 9 samples.

Results

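The regions described here are the ZmbZIP60 binding peaks of maize that lie on unplaced contigs of the B73 genome. They were chosen by position alone, as every peak of the ZmbZIP60 list whose sequence name is not chromosome 1 to 10. This gave 553 of 3042 peaks, on 78 contigs whose names begin with B73V4_ctg, and contigs are called here by the number that ends the name. The peaks covered 449236 bp, which is 26.2% of all bases covered by the list, against 18.2% of its peaks (95% exact Clopper-Pearson interval 16.8 to 19.6, counting error only). The share depends on what is counted: it was 7.21% when neighbours within 10000 bp were counted together as 1 locus, and 30.8% among peaks with 20 or more control tags over 200 bp.

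Maize is Zea mays, and the material was leaf protoplasts (cells without walls) of the inbred line B73 that carried either a GFP fusion of ZmbZIP60 (3 libraries) or the GFP vector alone (3 libraries). A further group with a GFP fusion of ZmbZIP17, which one label field calls bZIP91, also had 3 libraries. The labels give all groups tunicamycin in DMSO (5 mg per ml) at the seedling stage. The controls therefore carried the stress too, and no unstressed arm is among the samples. The fusion was introduced into protoplasts, the promoter that drives it is not given in the sources used here, and the letter C that ends the name of the fusion in the labels is not explained there. An antibody against GFP was used for the pull-down of chromatin. Libraries of a group were merged before peaks were called, so each peak has 1 pull-down and 1 control value, and the spread of replicates is not known. The merged ZmbZIP60 input is named with the numbers 1 and 3 only, so it may not hold all 3 libraries. After filtering, the merged ZmbZIP60 pull-down held 18726110 tags and the merged vector control 47193255.

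In plants, bZIP60 is a transcription factor of the unfolded protein response. Under stress of the endoplasmic reticulum (ER), the sensor IRE1 splices its mRNA, and the protein then enters the nucleus and activates genes for chaperones and other parts of the folding machinery. Factors of the bZIP family bind short elements around an ACGT core. Tunicamycin blocks N-glycosylation and thereby causes ER stress. Unplaced contigs are assembled pieces that were not assigned to a chromosome, and in plant genomes such pieces are often rich in repeated sequence. Base sequence, repeat content and genes of the contigs were not analysed here.

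Most contig peaks stood on sequence that was already heavily covered in the vector control. The pileup, which is the number of pull-down tags extended to 200 bp that cover the summit, had a median of 150 and quartiles of 116 and 217. The control at the same summits had a median of 184 tags over 200 bp, with quartiles of 139 and 240, whereas the mean over the genome was 3.50. Fold enrichment, the authors' ratio of pull-down to depth-scaled local control, had a median of 2.24 with quartiles of 2.0 and 2.46. Chromosomal peaks had a median pileup of 32, a median control of 13 tags and a median fold of 3.64. These are descriptions of 1 merged list, and no test was made on peaks, which are not replicates.

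Peaks were spread unevenly over the contigs. Of the 78 contigs, 26 held 10 or more peaks and together 357 of the 553 (64.6%), while 16 held a single peak and 8 held 2. The 10 contigs with most peaks held 177 (32.0%). Contig 167 led with 24 peaks, followed by contig 154 with 21, contig 238 with 20, contig 216 with 19 and contig 205 with 18. Next came contig 140 with 17 peaks, contig 139 with 16, and contigs 165, 199 and 224 with 14 each. A high number of peaks did not go with a high covered length in every case. Contig 154 had 10963 bp in its 21 peaks, and contig 134 had 84532 bp in only 9. Contig 134 alone made up 18.8% of all covered contig sequence, and it and the next 4 contigs by covered length made up 39.8%.

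Contig length was not used here, because no genome of this build was used, so cover is given as the share of bases under peaks between the first and the last listed base, which is the peak extent and not the contig. Among the 54 contigs with 3 or more peaks, this covered share had a median of 12.8% with quartiles of 6.26% and 28.1%. It was under 10% on 23 contigs and at least 50% on 8. The 8 contigs with such densely covered extents held 76 peaks (13.7% of contig peaks) and 169430 bp (37.7% of covered contig sequence). Counted from base 1 to the last listed base, which gives an upper bound on the share of the contig under peaks, only contigs 134, 249 and 167 were above 50%. The other 5 (contigs 39, 121, 156, 204 and 248) were under 40% on that count, so these were not nearly filled. Contig 167 was at 53.9% on it, so it was not nearly filled either. Whether contigs 134 and 249 extend past their last listed base is not known.

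Contig 134 was the most completely covered by either count. Its 9 peaks ran from base 3 to base 86425 and covered 97.8% of that extent, with gaps of 150 to 415 bp between neighbours. Its longest peaks were 27556 bp (16787 to 44342) and 22848 bp (63578 to 86425), the longest and second longest on any contig. The longest chromosomal peak was 21655 bp. Pileups on contig 134 lay between 264 and 354 and its folds between 2.72 and 3.18, and every one of its pileups was above the upper quartile of 217 over contig peaks. It also held the 5 contig peaks with the highest −log10 q. The first of them, at 44758 to 48625, had a −log10 q of 65.5, at a fold of 3.18, and its summit had 340 pull-down tags (95% Poisson interval 305 to 378) where the control had 268. The call allows at most 400 tags at a summit, of which these are 85% and 67%. The Poisson model has no such limit, so the interval is only approximate.

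Contig 249 was the next by covered share, with 92.1% of bases 100 to 20794 under 8 peaks. Its pileups ranged from 158 to 355 and its folds from 1.57 to 2.55. The longest of its peaks, 6986 bp at 13809 to 20794, had 355 pull-down tags over 362 control tags before depth scaling. Contig 121 had 86.8% of bases 15738 to 22864 under 5 peaks, with pileups of 247 to 320 and folds of 2.66 to 3.52. Contig 204 had 80.8% of bases 14360 to 28263 under 8 peaks, with pileups of 140 to 321. On both, the listed extent began over 14 kb into the contig, and the covered share counted from base 1 to the last listed base was 27.1% on contig 121 and 39.8% on contig 204.

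The remaining contigs above 50% of their extent were less uniform. Contig 248 reached 72.2% over an extent of only 1830 bp with 3 peaks, and 2.03% from base 1. Contig 39 reached 61.1% with 8 peaks, and 37.4% from base 1. Of these peaks the first 2 had pileups of 39 and 36 and the last 5 had pileups of 313 to 342. Contig 167 reached 53.9% over 53497 bp, and the same from base 1. Its 24 peaks formed a block at 15 to 13363, a stretch of 11886 bp without a peak, and scattered peaks that ended in a run of 10 at 38366 to 53511. Contig 156 reached 50.8% with 11 peaks of 89 to 220 tags, and 14.8% from base 1. Just under the 50% mark came contig 195 with 47.4%, over only 1719 bp with 3 peaks, and 3.32% from base 1. Contig 199 followed with 44.4% over 59797 bp, and 44.3% from base 1.

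**Figure D1:**
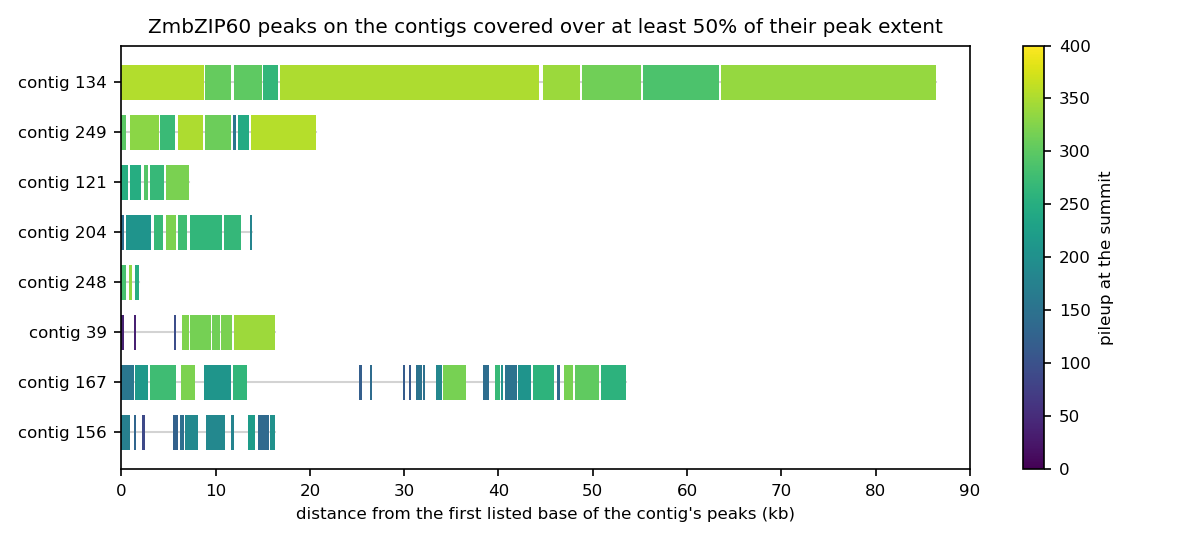
Peaks on the 8 contigs covered over at least 50% of their peak extent. The x axis is the distance in kb from the first listed base, each bar is a peak at its true length, the colour is the pileup at its summit, and grey lines join the first and last base. Contig 134 is almost fully covered over 86.4 kb with pileups of 264 to 354, while contig 39 starts with weak short peaks and contig 167 has a stretch of 11886 bp without a peak.

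Densely covered stretches were also found on contigs with a low total share. Runs were formed from neighbouring peaks separated by under 1000 bp, a distance chosen after seeing the data. Runs of 5 kb or more numbered 27 on 22 contigs and held 164 contig peaks (29.7%). The chromosomes had 45 such runs with 303 peaks (12.2% of all 2489, of which 1274 had under 20 control tags). Runs of 10 kb or more numbered 10 on contigs and 22 on chromosomes. The longest contig run was contig 134 at 86.4 kb, against 32.3 kb on the chromosomes. On contig 205, 10 peaks ran from base 31 to base 17241, and on contig 238, 16 peaks ran from 10771 to 25390. Contig 199 had a run of 3 peaks at 11316 to 23092 that was 94.1% covered, with a median pileup of 338. Contig 140, whose peaks began only at base 292484, had a run of 3 peaks at 336001 to 344953 that was 95.6% covered.

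Neighbouring contig peaks were close together. Of 475 gaps between neighbours on the same contig, 276 were under 1000 bp (58.1%), and the median gap was 673 bp. On the chromosomes 530 of 2479 gaps were under 1000 bp (21.4%), and the median gap was 327245 bp. These shares are not like for like, because a gap cannot be longer than its contig. The last listed base on any contig was 626591. The chromosomal gaps also include those around 1274 peaks with under 20 control tags. On 11 contigs (47, 134, 163, 166, 167, 169, 199, 202, 205, 211 and 249) the first peak began within the first 100 bases. The lowest peak start on any chromosome was base 1748, but with 10 chromosomes against 78 contigs no contrast can be drawn from this.

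Pileup differed widely between contigs. Over the 54 contigs with 3 or more peaks, the contig's median pileup ranged from 63 to 337.5. The highest medians were 337.5 on contig 169, 326 on contig 199, 315 on contig 39, 314 on contig 134 and 303.5 on contig 249. Even within these contigs the peaks varied: pileup ran from 124 to 381 on contig 169 and from 183 to 365 on contig 199. The lowest medians were 63 on contig 52, 69 on contig 138, 82.5 on contig 222, 98.5 on contig 224 and 103 on contig 137, a value that contig 232 shared. Contig 137 nevertheless held a peak of 4423 bp at 30406 to 34828 with a pileup of 288. Differences between contig means took up 41.4% of the spread of log2 pileup and 44.1% of that of log2 fold, so the larger part lay within contigs.

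**Figure D2:**
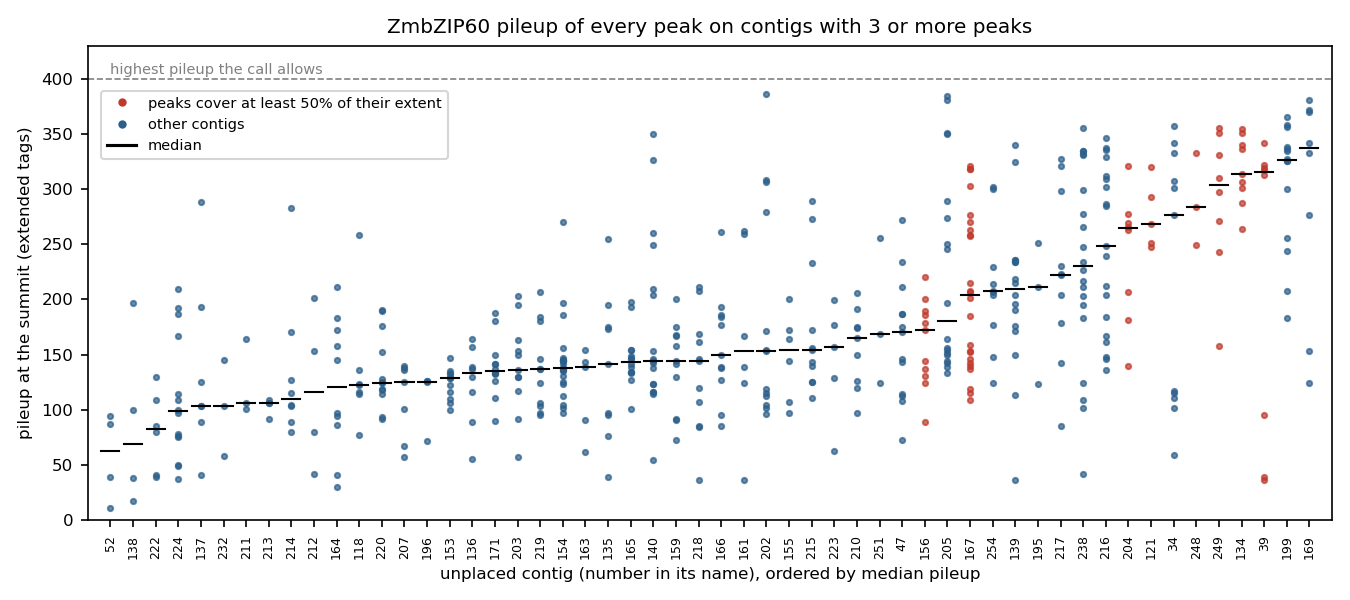
Pileup at the summit of each peak on the 54 contigs with 3 or more peaks, ordered by median (black bars); each point is a peak, and red points mark the 8 contigs covered over at least 50% of their extent. The dashed line is 400 tags, the highest pileup the call allows. Contig medians run from 63 to 337.5, and several contigs hold both weak and strong peaks.

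Contigs with a higher covered share had a higher pileup. Across the 54 contigs the Spearman correlation of covered share with median pileup was 0.75, and with the median control background it was 0.75 as well. With median fold it was 0.31. All contigs share the same merged libraries, and a long peak has more positions at which a high summit can be found, so these are descriptions. Long peaks made up most of the covered sequence: 97 contig peaks (17.5%) were at least 1000 bp long and held 61.2% of the covered bases. On the chromosomes 205 peaks (8.24%) were that long and held 37.0%. The chromosomal shares count 1274 peaks with under 20 control tags, none longer than 1119 bp, while contigs had 12 such peaks. The shares are therefore not matched on background. Chromosomal peaks with 20 or more control tags had a median length of 384 bp, against 369 bp over all contig peaks.

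**Figure D3:**
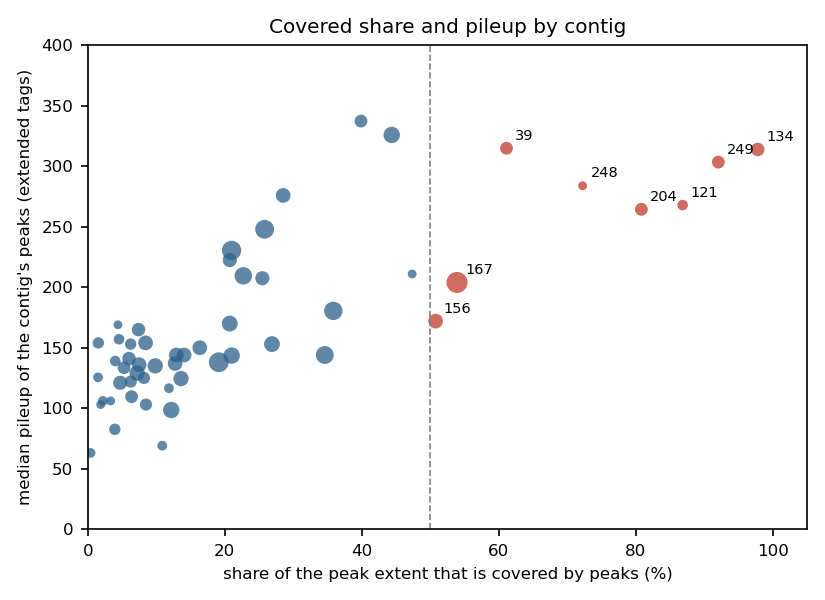
Median pileup (y axis, extended tags) against the share of the peak extent covered by peaks (x axis, %) for the 54 contigs with 3 or more peaks. Point area grows with the number of peaks, and red points with numbers are the 8 contigs at or above the 50% line. The 23 contigs under 10% cover have medians of at most 169 tags, and 6 of the 8 at or above 50% of their extent have medians above 260.

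The call kept 1 tag per position and strand, so no summit could exceed 400 pull-down tags. Contig summits filled a median of 37.5% of these positions in the pull-down and 46.0% in the control. Only 7 of 553 contig peaks (1.27%, 95% exact interval 0.510 to 2.59) reached 360 tags, and 4 of 2489 chromosomal peaks (0.161%) did. The limit nevertheless bounds the fold where the control is high. It held for the control as well, which reached up to 391 tags (97.8% of positions) at contig summits. Where both counts near the limit, the fold moves towards the inverse of the depth scaling of 0.397, whatever the enrichment.

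Set against chromosomal peaks of the same control background, contig peaks had lower median folds in all 8 bins. At 100 to 150 control tags the medians were 2.19 for 107 contig peaks and 2.73 for 230 chromosomal ones. At 150 to 200 they were 2.04 for 150 and 2.62 for 149, and at 200 to 250 they were 2.17 for 108 and 2.59 for 81. At 250 to 300 they were 2.32 for 56 and 2.92 for 23. The quartile ranges of the 2 kinds of peak overlapped in the bins between 50 and 250 control tags and did not at 20 to 50 and 250 to 300. In the highest bin, 300 to 400 control tags, the medians were close, at 2.44 for 70 contig and 2.45 for 18 chromosomal peaks. These peaks reached medians of 82.8% and 86.3% of the highest fold possible. The control was near the same limit there, so the close medians do not measure equal enrichment.

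**Figure D4:**
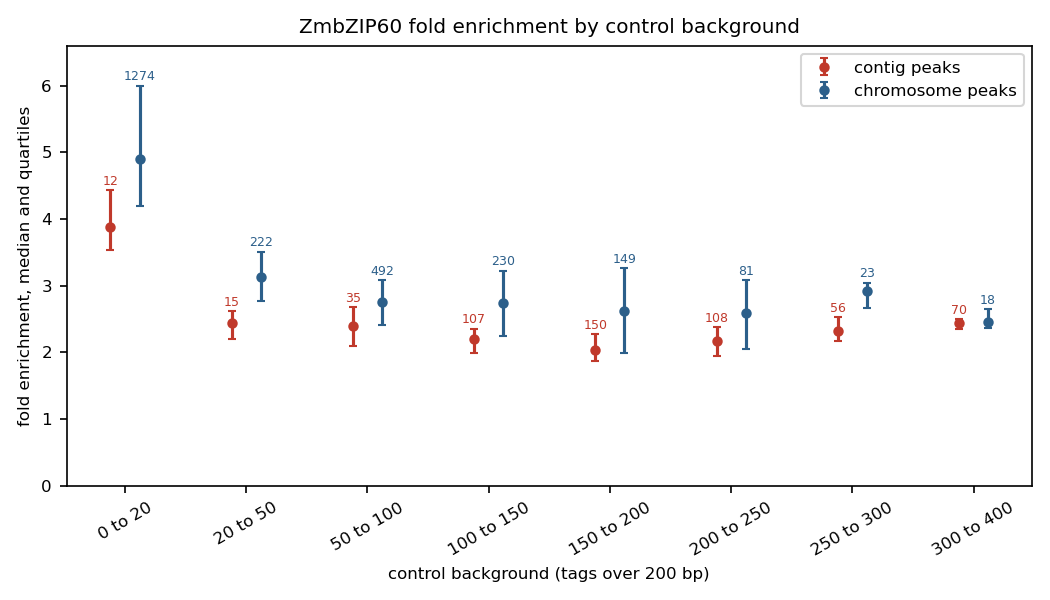
Fold enrichment (y axis, a ratio) by control background in tags over 200 bp (x axis) for contig peaks (red) and chromosomal peaks (blue). Points are medians, bars run from the lower to the upper quartile, and the numbers over the bars count peaks. Contig medians lie below chromosomal ones in every bin, at 300 to 400 control tags only just, with 2.44 against 2.45.

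Contigs 134 and 121 stood apart by fold from the other contigs of high background. Of the 54 contigs with 3 or more peaks, 19 had a median of at least 200 control tags. Summed over all summits of a contig, the ratio of pull-down to depth-scaled control tags was 2.97 on contig 134 (95% exact interval 2.81 to 3.14, from 2853 pull-down tags at 9 summits). On contig 121 it was 3.05 (2.81 to 3.30, from 1379 tags at 5 summits). The other 17 contigs had ratios of 2.04 to 2.57, and the highest upper bound among them was 2.79, on contig 248. On all 17 the limit on pileup allowed a ratio of at least 3.22. The control was under the same limit, which that bound does not allow for. The intervals cover counting error only, under a Poisson model that ignores the limit on pileup, so they are approximate. Summits are chosen as the highest points, and this pair of contigs was picked out after the values were seen. Contigs 134 and 121 had median folds of 2.996 and 3.03, which is within the range of chromosomal loci of 5 or more peaks, whose median folds ran from 1.88 to 3.28.

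**Figure D5:**
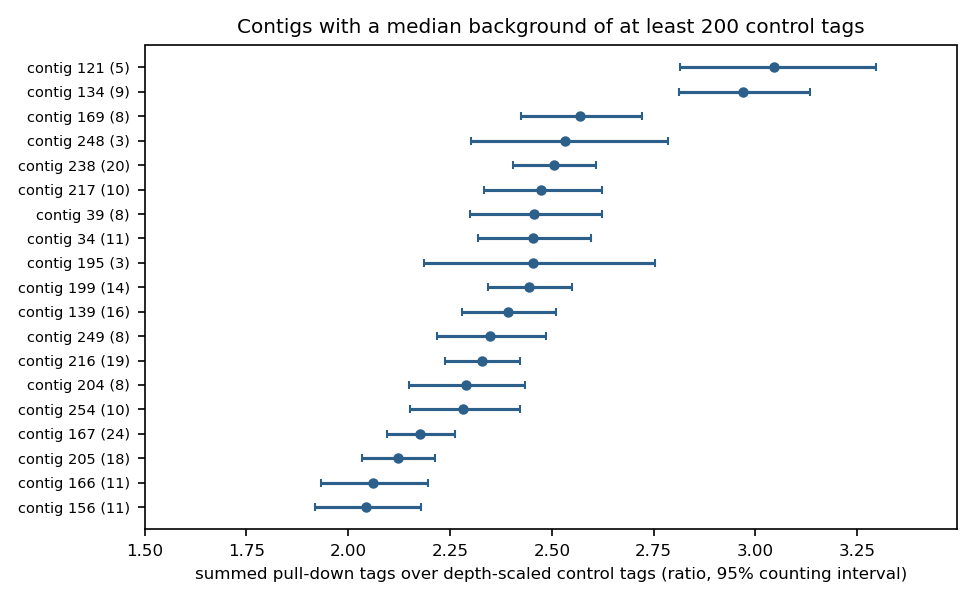
Ratio of summed pull-down tags to summed depth-scaled control tags at the summits (x axis) for the 19 contigs with 3 or more peaks and a median of at least 200 control tags; the number of peaks is in brackets and bars are 95% exact counting intervals. The intervals ignore the limit on pileup and are approximate. Contigs 121 and 134 lie at 3.05 and 2.97, and the next contig, 169, at 2.57.

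The same pair of contigs was prominent among single peaks of high fold. With 200 or more control tags the chromosomal median fold was 2.60 over 122 peaks. Of 234 contig peaks with that background, 27 (11.5%) were at or above it, on 14 contigs. All 13 such peaks of contigs 134 and 121 were among the 27. This count reuses the summits by which the pair was picked out, so it is not a separate observation.

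Few contig peaks resembled the isolated sites of low background that are common on chromosomes. Only 12 of 553 had under 20 control tags, a split chosen with earlier results known, against 1274 of 2489 on the chromosomes. They were short, with a median of 282 bp, and their median fold was 3.87 with quartiles of 3.54 and 4.43. The chromosomal ones had a median length of 275.5 bp and a median fold of 4.90 with quartiles of 4.19 and 5.997. Of the 12, 9 made up the whole list on their 8 contigs, and 3 shared contigs 52, 138 and 164 with high-background peaks.

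The 5 highest folds on contigs all came from these low-background peaks. The highest was 6.54 on contig 14 at 68337 to 68697, from 18 pull-down tags (95% Poisson interval 10.7 to 28.4) over a background of 4.80 control tags. Contig 98 followed at 21825 to 22212 with 6.09, from 22 tags where the control had 7. Contig 115 followed at 35977 to 36236 with 5.49, contig 23 at 48707 to 48973 with 4.07, and contig 142 at 75985 to 76350 with 4.03. With 16 to 22 pull-down tags each, their counting intervals are wide and overlap. At the other end, contig 107 at 43037 to 43333 had 10 tags, a fold of 3.22 and a −log10 q of 1.41, the lowest on any contig.

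Contigs 150 and 52 held peaks of both moderate background and high fold. On contig 150 a single peak at 623127 to 623446 had 128 tags over 80 control tags and a fold of 3.94. Contig 52 had 4 peaks between bases 352375 and 626591, one of them at 624574 to 624854 with 94 tags over 58 control tags and a fold of 3.96. Both folds were the highest of any contig peak with 20 or more control tags.

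The most similar regions on the chromosomes were loci of 5 or more peaks, each less than 10000 bp from the next. There were 54 such loci, and the same joining gave 45 on contigs. Extents were alike, with medians of 13.3 kb on contigs and 13.8 kb on chromosomes, and so were covered shares, with medians of 45.4% and 51.4%. The control background differed more, with a median of 206 tags over contig loci (quartiles 171 and 245) and 109.75 over chromosomal ones (quartiles 68.25 and 183.75). Median fold was 2.18 over contig loci (quartiles 2.08 and 2.41) and 2.78 over chromosomal ones (quartiles 2.21 and 2.99). These differences were not tested.

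None of the 553 contig peaks overlapped a ZmbZIP17 peak, and none of the 282 ZmbZIP17 peaks lay on a contig. Of chromosomal ZmbZIP60 peaks 7.51% overlapped one by at least 1 bp. MACS2 scaled the deeper ZmbZIP17 library to the depth of the control, which set a ceiling of 149 on its pileup. At 486 of the contig summits the pileup needed to reach the weakest p of the ZmbZIP17 list was above that ceiling. On 36 contigs this held for every peak. The other 67 peaks, on 42 contigs, could have been listed, and 0 of 67 allows a share of up to 4.48% (3 counts of the total, counting error only). That limit counts each peak as a separate trial, although all come from the same merged call. Of 2007 chromosomal peaks under the same ceiling 8.97% overlapped a ZmbZIP17 peak. The groups were not matched on background, because chromosomes had 1274 peaks with under 20 control tags and contigs had 12. No contrast can therefore be drawn between these shares. Both calls used the same control libraries, and no test was made of the 0, which was known beforehand.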

How the data were processed

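Members, marks and settings were chosen with earlier results of these data known. The tools named by the submitters' processing notes are BWA, Trimmomatic 0.36, bedtools and MACS2. The settings of BWA, and where it placed tags that match several copies, are not stated in the labels or headers.

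Merged libraries went into MACS2 2.1.0.20150420, per the file headers, at a q of 0.05 and a genome size of 2.7 Gb. Tags were extended to 200 bp without a fragment model, the deeper dataset was scaled to the other, and duplicates were reduced to 1 tag at each position of a strand. This removed 26% of ZmbZIP60 and 9% of control tags. The merged ZmbZIP60 input is named with the numbers 1 and 3 only. The names for the control and for ZmbZIP17 carry 1, 2 and 3. Replicate 2 of ZmbZIP60 may therefore have been left out, but this is not stated.

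The deposited pileup is a signal of extended tags at the summit, the deposited fold is a ratio to local control, and both deposited significance columns (−log10 p, −log10 q) rest on the Poisson model of MACS2. All are the authors' values. The deposited score column is derived from the −log10 q and was not used. The 3 deposited files agreed for all 553 contig peaks. Control tags were recovered as (pileup + 1)/fold − 1, divided by the depth scaling of 0.397. They were whole within 0.02 at 96.9% of contig peaks and set to that number. The rest are means over wider windows. Recomputed −log10 p differed from the deposited one by at most 0.0387. Contig names carry the mark of B73 assembly version 4, and coordinates are 1-based on it. Recovery of control tags, joining, overlap and intervals were tested on simulated data.

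Regions named are the 10 contigs with most peaks, the 10 with the highest covered share, the 5 with the highest and lowest median pileup, and the peaks with the highest fold, −log10 q or length, or under 20 control tags. Contigs or peaks named beyond this, such as contig 150 and the runs, were chosen after their values were seen. Alternatives were a stricter q, leaving out a contig, joined loci, medians over contigs, other marks and denominators, and a stricter overlap. No test was run. Scripts ran in Python 3.11.15 with scipy 1.17.1, pandas 2.3.3, numpy 2.4.6 and, for plots, matplotlib 3.10.9.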

Additional observations from a re-analysis of the deposited data

How the results depend on the processing

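No paired analysis was possible because libraries were merged before peaks were called, and for the same reason no replicate could be left out. Of 44 values under alternatives, 30 stayed within the 95% interval of the reported value or within 1.5 times the reported count, and 14 moved. Of the 30, 5 were the overlap with ZmbZIP17, which no alternative could change. Leaving out 1 contig could only take the 78 contigs to 77. The intervals, such as 144 to 157 for the median pileup, do not hold the spread of replicates. The 30 are therefore no measure of stability. With only peaks of −log10 q of at least 5, the contig share of peaks was 21.3% and the median pileup 164. Joined into loci, the contig share was 7.21%, the median pileup 137.5, the median control 156.25 tags, and the contigs with a locus covered to at least 50% numbered 22. As medians over contigs, pileup was 140, control 166.25 tags and fold 2.28. The number of contigs whose peak extent was covered to the mark was 8 at 50%, 13 at a 30% mark, 5 at a 70% mark and 3 when counted from base 1 to the last listed base, the last chosen after seeing the data. The share of contig peaks that reached at least 75% of the highest pileup was 12.7%. With only peaks of 20 or more control tags, also chosen afterwards, the contig share was 30.8%. The 0 overlap with ZmbZIP17 could not change under the alternatives tried, because no ZmbZIP17 peak lay on a contig. The planned denominator of full contig length was not run. Depth limits the low-background peaks, which rest on 10 to 30 tags each.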
